A study of Mus musculus with 82 samples.

Results

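Accessible regions at H3K4me3 promoters of mouse hematopoietic stem cells (HSCs) were compared between young and old animals. A promoter region was defined as a consensus ATAC-seq region that shared at least 1 bp with an H3K4me3 peak annotated as TSS-proximal, TSS being the transcription start site. This rule gave 16379 promoter regions out of 127695 consensus regions (12.8%), and it used no accessibility value. They overlapped 14379 of the 14684 TSS-proximal H3K4me3 peaks and were tied to 15202 genes, with 2131 regions tied to more than 1 gene.

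ATAC-seq, in which a transposase cuts and tags open chromatin, was used on 4 libraries of young HSCs (YHSCs) and 4 of old HSCs (OHSCs). The labels number the YHSC libraries 1 to 4 and the OHSC libraries 5 to 8, and old libraries of other numbers were not analysed here. The cells came from male C57BL/6J mice that carried no engineered allele and received no treatment, and they were sorted as CD34-, Flk2- and CD150+ cells of the Lin-, Sca1+, Kit+ compartment. The labels give age only as young or old, and tie no ATAC-seq library to an animal. The description of the study's supplementary data counts its ATAC-seq samples as mice, and its methods give no number of animals for a library. The p-values below measure the spread between these libraries. H3K27ac ChIP-seq (2 libraries for each age), H3K4me3 ChIP-seq (2 young libraries) and mRNA-seq (4 young libraries from pooled mice, 8 old libraries from individual mice) were read at the same regions and genes. In such bulk samples, fewer cells with an open promoter and less opening per cell cannot be told apart.

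Trimethylation of lysine 4 of histone H3 (H3K4me3) marks the start sites of active and poised genes and is laid down mainly at CpG-rich promoters. Where the Polycomb mark H3K27me3 lies over the same promoter, the state is called bivalent, and it is typical of silent developmental genes in stem cells. In HSCs, H3K4me3 covers the starts of housekeeping genes, of stem cell regulators and of many lineage genes that are not yet transcribed. H3K27ac marks active promoters and enhancers.

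The promoter stretches below belong to the regions on which the comparison of largest changes turned, that is the 3 largest rises, the 3 largest falls and the most accessible region. They show how far these promoters differ in CpG content, and each CpG is in capitals. Each is the RefSeq sequence of GRCm38.p6 (mm10), 5′ to 3′ on the strand of the gene, and is the part of the region from 250 bases before to 50 after its nearest own start site. Gnasas1, with no start site of that name in the annotation used, is given as the central 300 bases on the plus strand.
Nupr1, chr7:126625426-126625705, minus strand: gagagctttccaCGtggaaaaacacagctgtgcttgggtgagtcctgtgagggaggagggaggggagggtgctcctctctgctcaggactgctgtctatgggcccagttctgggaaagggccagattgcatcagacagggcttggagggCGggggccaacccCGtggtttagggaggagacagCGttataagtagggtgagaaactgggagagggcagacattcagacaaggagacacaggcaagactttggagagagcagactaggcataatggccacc
Grm7, chr6:110645332-110645631, plus strand: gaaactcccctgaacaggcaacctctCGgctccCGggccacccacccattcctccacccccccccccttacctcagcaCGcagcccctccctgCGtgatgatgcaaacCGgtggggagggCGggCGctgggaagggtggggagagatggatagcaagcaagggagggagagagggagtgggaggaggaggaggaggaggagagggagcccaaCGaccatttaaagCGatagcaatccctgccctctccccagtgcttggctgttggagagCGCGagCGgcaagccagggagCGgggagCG
Epha6, chr16:60605482-60605781, minus strand: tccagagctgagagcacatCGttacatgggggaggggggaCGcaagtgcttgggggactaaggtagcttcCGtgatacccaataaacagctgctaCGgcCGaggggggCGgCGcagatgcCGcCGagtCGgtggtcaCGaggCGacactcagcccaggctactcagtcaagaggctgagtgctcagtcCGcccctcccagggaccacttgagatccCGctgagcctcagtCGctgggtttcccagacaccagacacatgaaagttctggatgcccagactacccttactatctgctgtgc
2410018L13Rik, chr12:23010194-23010493, minus strand: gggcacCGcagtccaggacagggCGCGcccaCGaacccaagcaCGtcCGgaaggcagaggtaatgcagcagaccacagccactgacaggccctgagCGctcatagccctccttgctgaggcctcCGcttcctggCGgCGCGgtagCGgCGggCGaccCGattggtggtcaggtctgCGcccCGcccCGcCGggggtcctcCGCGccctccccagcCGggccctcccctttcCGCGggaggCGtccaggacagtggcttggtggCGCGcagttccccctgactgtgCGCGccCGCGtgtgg
Gnasas1, chr2:174295363-174295662, plus strand: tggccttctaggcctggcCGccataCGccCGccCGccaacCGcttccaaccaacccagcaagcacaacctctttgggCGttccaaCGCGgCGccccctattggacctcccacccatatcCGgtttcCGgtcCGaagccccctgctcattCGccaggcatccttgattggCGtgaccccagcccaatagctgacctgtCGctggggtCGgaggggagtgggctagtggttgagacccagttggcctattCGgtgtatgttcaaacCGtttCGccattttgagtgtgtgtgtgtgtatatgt
Rps4l, chr6:148354471-148354759, plus strand: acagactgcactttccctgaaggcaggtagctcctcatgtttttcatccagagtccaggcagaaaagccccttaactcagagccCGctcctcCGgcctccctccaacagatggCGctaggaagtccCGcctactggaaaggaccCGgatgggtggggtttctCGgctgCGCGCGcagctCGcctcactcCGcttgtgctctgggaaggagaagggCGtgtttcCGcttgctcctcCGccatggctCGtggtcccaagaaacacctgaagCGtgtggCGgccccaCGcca
Crlf2, chr5:109558887-109559186, minus strand: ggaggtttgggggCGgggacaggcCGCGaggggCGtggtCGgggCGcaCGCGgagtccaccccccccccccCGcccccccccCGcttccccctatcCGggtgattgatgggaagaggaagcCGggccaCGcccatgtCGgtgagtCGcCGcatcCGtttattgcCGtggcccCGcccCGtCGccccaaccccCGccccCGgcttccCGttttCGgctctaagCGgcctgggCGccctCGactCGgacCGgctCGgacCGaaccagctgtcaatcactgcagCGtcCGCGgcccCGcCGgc
The Nupr1 stretch held 4 CpGs in 280 bases, against 14 in the Grm7 stretch, 15 in Epha6, 31 in 2410018L13Rik, 19 in Gnasas1, 18 in the 289 bases of Rps4l and 37 in Crlf2. The GC box GGGCGG was found on either strand in each of them except Rps4l, 4 times in Crlf2.

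Promoter regions were long, GC-rich and highly accessible. Their median length was 1039 bp against 449 bp for the other regions, their median GC content 59.3% against 46.8%, and their observed-to-expected CpG ratio 0.684 against 0.196. Accessibility is given as CPM, the read count of a region scaled to the size of its library after TMM normalisation. The median of the mean over the 8 libraries was 18.7 CPM in promoter regions and 2.45 CPM in the others, or 17.8 and 5.38 CPM per kb of region. An annotated TSS lay inside 80.9% of promoter regions and 2.59% of the others. Promoter regions overlapped an H3K27ac peak in 81.6% of cases (others 23.1%), an H3K27me3 peak in 28.5% (22.5%) and an H3K36me3 peak, a mark of transcribed gene bodies, in 20.4% (27.97%). Over the 16379 regions, young H3K4me3 signal and young CPM per kb had a Spearman correlation of 0.511, a description across regions that share libraries. The 89 regions that met the rule by 50 bp or less had a median of 3.28 CPM, and the 69 regions that lay within 50 bp of a peak without touching it had 2.78 CPM.

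Short sequence motifs were counted in the central 200 bp on both strands. The GC box GGGCGG, bound by SP and KLF factors, stood in 47.2% of promoter regions and 11.2% of all regions. The ETS site CCGGAAGT stood in 3.23% and 0.799%, and the NRF1 site GCGCATGC in 1.95% and 0.530%. Motifs of blood enhancers were less frequent in promoter regions than in all regions, with 8.12% and 21.4% for the RUNX site TGTGGT, 3.00% and 9.92% for the GATA site AGATAA, and 1.92% and 5.75% for the PU.1 site GAGGAAGT. The TATA box TATAAA stood in 2.79% of promoter regions and 9.65% of all regions. These are letter matches in one window and not tested binding sites.

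OHSCs had a smaller share of their ATAC-seq reads in promoter regions than YHSCs. The libraries held 15427933 to 26260337 counted reads. The share was 43.3%, 43.3%, 44.1% and 43.8% in the 4 YHSC libraries and 40.3%, 39.8%, 39.99% and 40.6% in the 4 OHSC libraries. The groups did not overlap, and the means were 43.6% ± 0.403 and 40.2% ± 0.325 (SD, n = 4 each). The difference of -3.45 percentage points had p = 0.0286 in a two-sided exact permutation test over libraries, the smallest value that 4 against 4 can give (Benjamini-Hochberg adjusted p = 0.0286 over 3 such tests). Over the same libraries the share in distal H3K27ac regions went from 24.5% ± 0.339 to 25.5% ± 0.174, and the share in regions with no profiled mark from 16.2% ± 0.731 to 17.8% ± 0.248.

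The level of a typical promoter region relative to the rest moved the same way. The median log2(CPM + 0.5) of promoter regions exceeded that of the other regions by 2.19 ± 0.03 (SD) in the 4 YHSC libraries and by 1.95 ± 0.02 in the 4 OHSC libraries. The difference was -0.24 (exact permutation p = 0.0286). The mean GC content of counted reads, weighted by region, was 53.6% ± 0.06 in YHSCs and 52.8% ± 0.11 in OHSCs, and no library of one group reached the other. With a smooth correction for GC content in each library the difference in share was -0.40 percentage points and the difference in level -0.06, both with p = 0.0286 by exact permutation. Compared within bands of equal GC content, the difference in level was -0.07 (p = 0.0286, exact permutation). A GC-dependent step of library preparation and a change of GC-rich chromatin with age cannot be told apart here.

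**Figure D1:**
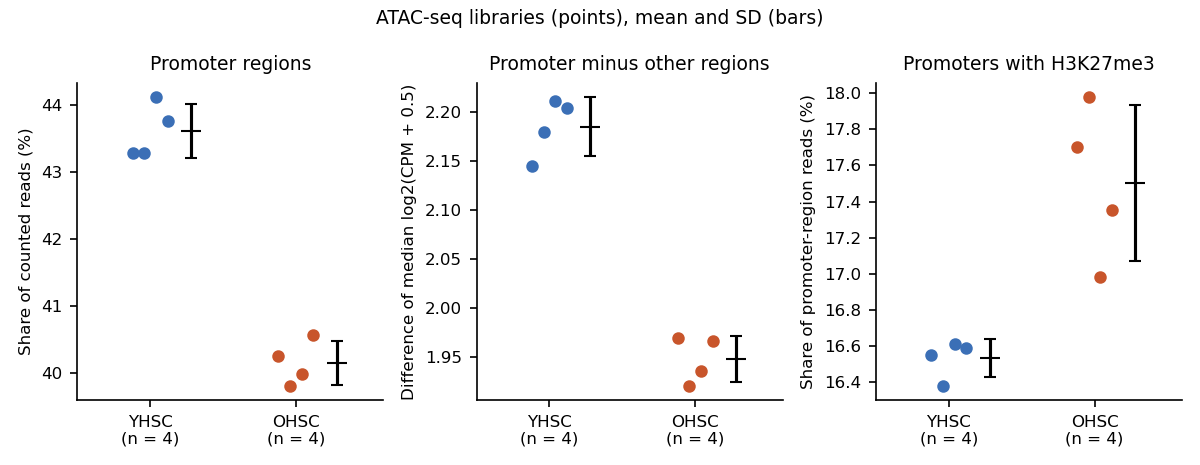
Per-library values of the 3 promoter measures, with each library as a point and the group mean and SD (n = 4) as a bar. The axes, which do not start at 0, are in percent of reads or in log2 units, and the 4 OHSC points lie below the YHSC points in the first pair of panels and above them in the panel of promoters with H3K27me3.

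The gap between promoter regions and the rest varied with GC content. Between 40 and 45% GC, the median log2 fold change (OHSC over YHSC) was -0.05 in 392 promoter regions and 0.12 in 19057 other regions. Between 50 and 55% GC it was -0.12 and -0.04. Between 60 and 65% GC it was -0.15 in 4255 promoter regions and -0.14 in 1335 others, close together. Between 65 and 70% GC it was -0.17 and -0.14. Of the 9156 tested regions above 60% GC, 7307 (79.8%) were promoter regions.

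**Figure D2:**
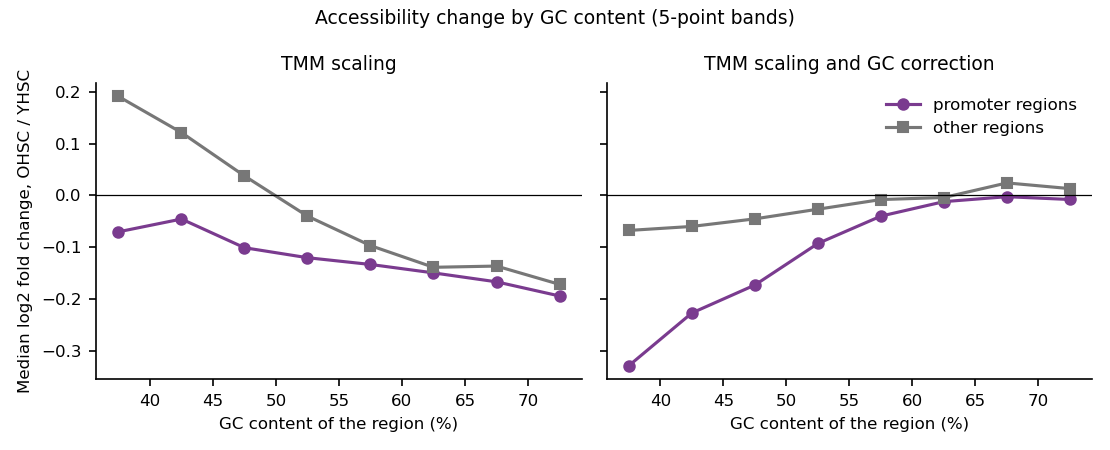
Median log2 fold change of promoter regions and other regions in bands of 5 points of GC content, with TMM scaling on the left and with the added GC correction on the right. The lines lie apart at low GC content and are closest between 60 and 65% GC, with values of -0.15 and -0.14 on the left. Between 65 and 70% GC the values on the left are -0.17 and -0.14.

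Few promoter regions changed by more than 1.5-fold. The edgeR quasi-likelihood test was fitted on the 89245 regions that passed the filter on low counts, of which 15905 were promoter regions. The other 474 promoter regions were not tested and had a median of 1.07 CPM. With adjusted p under 0.01 and more than 1.5-fold change required, 207 promoter regions were gained in OHSCs (1.30%, against a background of 10.1% of all tested regions) and 297 were lost (1.87%, background 2.9%). With the GC correction the counts were 250 gained and 216 lost, so that gained regions made up 53.6% of the calls in place of 41.1%. Of these, 194 gained and 152 lost regions were also called without it. The gained and lost regions described below are the calls without it. Without a fold threshold, 489 promoter regions were higher (3.07%, background 13.7%) and 3970 were lower (24.96%, background 9.54%). With the GC correction 852 were higher (5.36%) and 1761 lower (11.1%). All 4 OHSC libraries lay above all 4 YHSC libraries in 620 promoter regions (3.90%, background 16.2%) and below them in 5215 (32.8%, background 13.7%). The median log2 fold change was -0.14 over promoter regions and -0.01 over all tested regions.

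Gained promoter regions were weak H3K4me3 promoters that mostly carried H3K27me3. H3K27me3 overlapped 163 of the 207 gained regions (78.7%), 115 of the 297 lost (38.7%) and 26.6% of the regions not called. H3K27ac overlapped 40.6%, 71.7% and 83.8% of them. Of the 4376 tested promoter regions with H3K27me3, 3.72% were gained and 2.63% lost, with a median log2 fold change of -0.09. Of the 11529 without it, 0.382% were gained and 1.58% lost, with a median of -0.15. The 1649 regions with H3K27me3 and no H3K27ac held 106 of the gained regions and 59 of the lost.

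Gained regions lay mostly at weak H3K4me3 and lost regions at every strength. With the promoter regions put into 4 equal groups from the weakest to the strongest young H3K4me3 signal, 192, 11, 4 and 0 regions were gained and 129, 51, 48 and 69 were lost. The median young H3K4me3 signal was 3.60 in gained, 13.9 in lost and 17.7 in uncalled regions. Gained regions had a median of 5.25 CPM in YHSCs and 10.1 CPM in OHSCs, and lost regions 8.59 and 5.27 CPM. Reads in H3K27me3-overlapping regions made up 16.5% ± 0.105 (SD) of promoter reads in the 4 YHSC libraries and 17.5% ± 0.433 in the 4 OHSC libraries, a rise of 0.970 percentage points (exact permutation p = 0.0286). Over the promoters with H3K4me3 signal above the median that rise was 0.136 points, with an exact permutation p of 0.0571.

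The GC box stood in 34.8% of gained, 43.8% of lost and 47.9% of uncalled promoter regions. The ETS site CCGGAAGT was in 0 of the 207 gained regions, in 1.35% of lost and in 3.40% of uncalled regions. The GATA site AGATAA was in 7.25% of gained, 2.36% of lost and 2.89% of uncalled regions.

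The largest rise was at Nupr1, which encodes a stress-responsive chromatin protein and whose promoter was among the 44 gained without H3K27me3. Its promoter region had 1.15, 0.688, 1.93 and 1.38 CPM in the YHSC libraries and 7.51, 9.12, 6.74 and 7.51 CPM in the OHSC libraries. Every OHSC library was above every YHSC library, with a log2 fold change of 2.52 ± 0.18 (SE) and an edgeR adjusted p of 1.1e-16. Nupr1 mRNA rose from 74.5 ± 3.20 CPM (SD, n = 4) to 268 ± 24.7 CPM (n = 8), a log2 fold change of 1.85.

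Next came Grm7 and Epha6, both with H3K27me3 and both best known from neurons. Grm7, a metabotropic glutamate receptor, had 1.52, 1.10, 1.70 and 1.14 CPM in YHSCs and 7.20, 8.96, 5.01 and 6.70 CPM in OHSCs, a log2 fold change of 2.32 ± 0.19 (edgeR adjusted p = 3.1e-15). Epha6, an ephrin receptor, had 3.53, 4.95, 6.27 and 4.74 CPM in YHSCs and 21.2, 22.9, 16.6 and 18.7 CPM in OHSCs, a log2 fold change of 2.02 ± 0.12. Neither pair of groups overlapped, and both genes had little mRNA, with means of 0.335 and 0.469 CPM for Grm7 and 0.437 and 0.264 CPM for Epha6. The regions of Dpp6, an auxiliary subunit of potassium channels (log2 fold change 1.86), of Olfm3, a secreted olfactomedin protein (1.82), of Gabra2, a GABA-A receptor subunit (1.70), and of the predicted gene Gm32810 (1.64) rose likewise and all carried H3K27me3. Of 2 more called regions of Dpp6, named after their values were seen, one was gained (1.39) and the other lost (-0.73). Of these, Dpp6 mRNA was 1.26 ± 1.05 CPM in YHSCs and 0.953 ± 0.465 in OHSCs, and Gabra2 mRNA 1.14 ± 0.496 and 0.654 ± 0.368 CPM, and neither difference passed the test.

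Phf11d, a PHD finger gene, completed the 8 largest rises. Its region went from 2.35 ± 0.226 to 7.29 ± 2.31 CPM (SD, n = 4 each; log2 fold change 1.64 ± 0.17), and its mRNA rose from 10.6 ± 1.71 CPM (n = 4) to 48.8 ± 7.08 CPM (n = 8). The H3K27ac peaks over the Dpp6, Gabra2 and Phf11d regions had OHSC to YHSC signal ratios of 2.80, 1.81 and 2.54. Of the 31-base words of the Phf11d region, 22.9% occur elsewhere in the genome, so reads of related copies may enter its value.

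The largest fall was at 2410018L13Rik, an uncharacterised gene. Its region had 6.15, 5.92, 5.41 and 5.41 CPM in YHSCs and 0.621, 0.876, 0.363 and 0.485 CPM in OHSCs, a log2 fold change of -3.27 ± 0.22 (edgeR adjusted p = 4.9e-18). The groups lay far apart, but 72.0% of its 31-base words recur in the genome, as do 74.8% of those of 9030624G23Rik (log2 fold change -1.41) and 70.8% of those of LOC102639700 (-1.37), both also on chromosome 12. These 3 values are uncertain for that reason.

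Gnasas1, an antisense transcript of the imprinted Gnas locus, had a region with no recurring words. It had 4.39, 2.55, 3.91 and 2.88 CPM in YHSCs and 1.09, 0.796, 1.09 and 0.808 CPM in OHSCs, with a log2 fold change of -1.88 ± 0.23 (edgeR adjusted p = 2.8e-09). Rps4l, a ribosomal protein S4 paralogue, had 3.08, 2.55, 2.68 and 2.64 CPM in YHSCs and 0.880, 1.08, 0.525 and 0.727 CPM in OHSCs, a log2 fold change of -1.77 ± 0.25. For both genes each OHSC library was below each YHSC library. Rps4l mRNA fell with it, from 23.8 ± 1.49 CPM (SD, n = 4) to 8.11 ± 2.33 CPM (n = 8), and the H3K27ac signal ratio at its promoter was 0.345. Of the 31-base words of the Rps4l region 14.8% occur elsewhere in the genome, so reads of related copies may enter its value.

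Evl, a regulator of actin filaments, went from 7.56 ± 0.418 to 2.96 ± 0.599 CPM (SD, n = 4 each; log2 fold change -1.36 ± 0.15), in a window of 5 Mb on chromosome 12 with a promoter median of -0.44. Its mRNA fell from 7.41 ± 0.815 CPM (n = 4) to 3.29 ± 0.711 CPM (n = 8), and its H3K27ac ratio was 0.474. Gm7102 and 4930447C04Rik fell by 1.39 and 1.31 on the log2 scale, with 18.02% and 8.47% recurring words. All 8 of the largest falls carried H3K27me3. The regions of Nupr1 and Grm7 passed the filter on low counts through their OHSC libraries. Those of 2410018L13Rik, Gnasas1 and Rps4l passed it through their YHSC libraries, and were not tested when a YHSC library was left out. Otherwise each of these 16 regions kept its direction and its call without any one library.

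**Figure D3:**
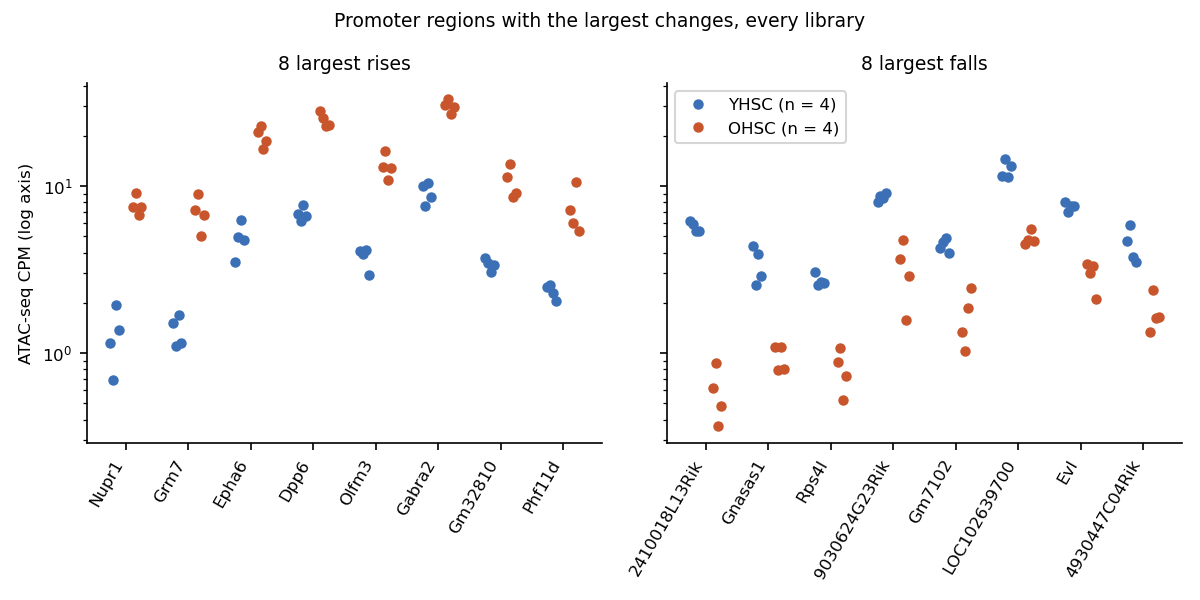
Accessibility in CPM on a log axis of the 8 promoter regions with the largest rises and the 8 with the largest falls, each point 1 library. YHSC and OHSC points do not overlap in any of the 16 regions, for example 0.688 to 1.93 CPM against 6.74 to 9.12 CPM at Nupr1.

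The most accessible promoter regions moved little. The region of Crlf2, a receptor chain for thymic stromal lymphopoietin, had 249, 256, 236 and 250 CPM in YHSCs and 221, 219, 218 and 232 CPM in OHSCs, a log2 fold change of -0.16 ± 0.03. Lnpep, an aminopeptidase, had 237 ± 1.94 and 206 ± 1.66 CPM (SD, n = 4 each; -0.20 ± 0.03), and 4932412D23Rik had 227 ± 6.71 and 208 ± 5.56 CPM (-0.12 ± 0.03). All 3 were past an edgeR adjusted p of 0.01, and none was past it with the GC correction, which put 4932412D23Rik at 0.02. Without OHSC replicate 7 the adjusted p of 4932412D23Rik was 0.038.

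Lost promoter regions were concentrated on a few chromosomes. Chromosome 11 held 119 of the 297, or 9.41% of its 1265 tested promoter regions. Chromosome 19 held 28 (5.05% of 554) and chromosome 12 held 21 (3.72% of 564). On the other chromosomes with a lost region the share was 0.352% to 2.37%. The median log2 fold change of promoter regions was -0.28 on chromosome 11 and -0.32 on chromosome 19, against -0.13 over the 14086 promoter regions elsewhere. The other regions on these chromosomes had medians of -0.11 and -0.21, against 0.05 elsewhere.

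On chromosome 11 the fall lay mostly between 45 and 95 Mb, a stretch picked after the values were seen and so given without a test. It held 619 promoter regions, of which 108 were lost (17.4%) and 392 (63.3%) were lower at an adjusted p below 0.01, with a median log2 fold change of -0.40 (-0.30 with the GC correction). Relative to the YHSC mean, its median was -0.36, -0.42, -0.38 and -0.36 in the 4 OHSC libraries and -0.02, -0.02, 0.03 and 0.01 in the YHSC libraries. All 4 OHSC libraries thus showed it. The 210 promoter regions before 45 Mb had a median of -0.09 with 1 lost, and the 436 after 95 Mb had -0.24 with 10 lost. The 1416 other regions within the stretch had a median of -0.29, and 16.5% of them were lost.

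Transcripts and H3K27ac of that stretch had medians near 0. The median mRNA log2 fold change of its 571 tested genes was -0.01, with 13 lower, where 2.83% of all tested genes were lower. The median log2 H3K27ac ratio over its 507 peaks was -0.02. The lowest window of 5 Mb, from 70 to 75 Mb, had 40 of its 76 promoter regions lost, a median of -0.61 both in promoter regions and in its 132 other regions, and a median mRNA change of 0.02. Shorter stretches of the same kind lay on chromosome 1 from 160 to 175 Mb (14 of 124 lost, median -0.33) and on chromosome 12 from 105 to 120 Mb (14 of 107 lost, median -0.41). The labels give no batch for these libraries, so a batch that differed between the YHSC and OHSC libraries cannot be told apart from age, and a difference in DNA copy number was not tested.

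Over the 322 windows of 5 Mb with at least 20 promoter regions, window medians ran from -0.61 to 0.15 around a median of -0.14. The 28 windows below -0.3 (8 on chromosome 11, 9 on chromosome 19 and 11 elsewhere) held 1479 promoter regions and 166 of the 297 lost. Taken relative to the median of all tested regions in its own window, promoter regions and others, 169 promoter regions were gained and 100 lost. H3K27me3 overlapped 38 of the 147 lost regions on chromosomes 11 and 19 (25.9%) and 77 of the 150 lost elsewhere (51.3%).

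**Figure D4:**
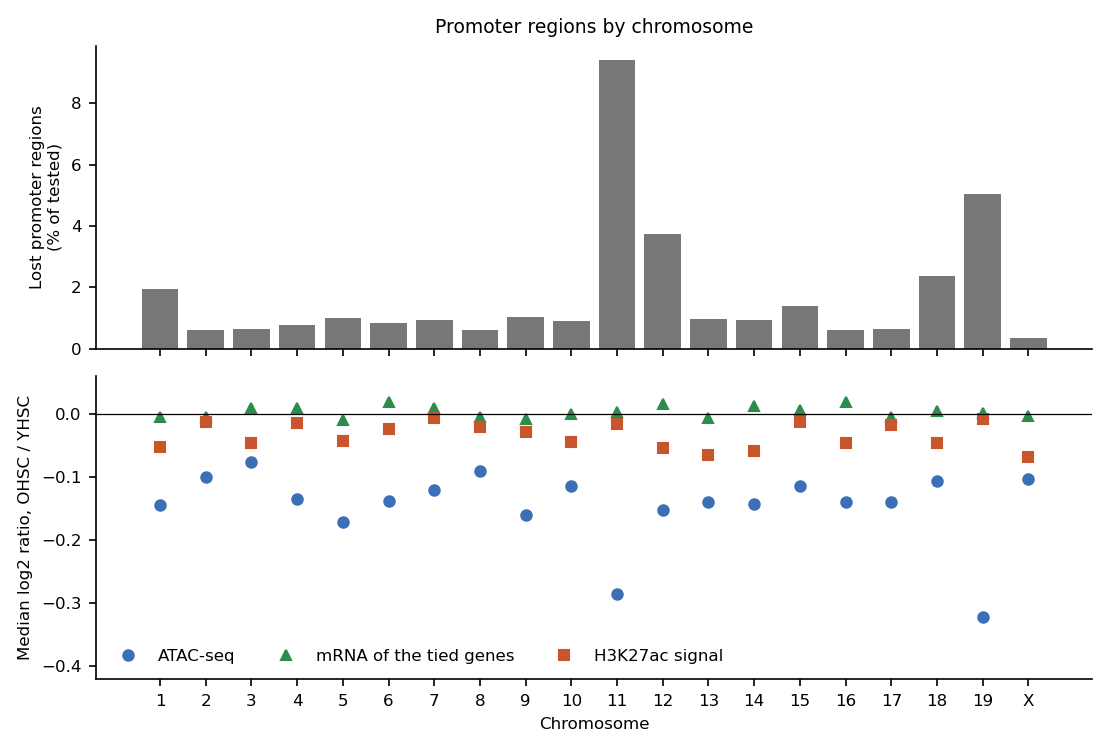
Upper panel, bars of the percentage of tested promoter regions lost on each chromosome. Lower panel, median log2 ratio (OHSC over YHSC) of promoter accessibility (circles), of the mRNA of the tied genes (triangles) and of H3K27ac signal over promoter regions (squares). Chromosomes 11 and 19 have the lowest accessibility medians, -0.28 and -0.32, while their mRNA and H3K27ac medians lie within the range of the other chromosomes. Chromosome Y, with 3 tested promoter regions, is left out.

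Genes with a gained promoter had higher mRNA at a larger share than all tested genes, and none passed the test for lower mRNA. Of the 205 genes of gained regions, 136 were tested, and 46 were higher (33.8%, against a background of 4.69% of all 21522 tested genes) and 0 lower (background 2.83%) by the edgeR test (more than 1.5-fold, adjusted p under 0.05). Of the 203 of these genes with counts, 114 were below 1 CPM at both ages, where lower mRNA could hardly be called. A gene near that floor in YHSCs could enter the test through its OHSC libraries, so both shares are limited by it. Of the 333 genes of lost regions, 281 were tested, and 46 were lower (16.4%) and 8 higher (2.85%). Among genes of any tested promoter region, 5.19% were higher and 2.99% lower.

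Both counts were then split by H3K27me3. Of genes with a gained region, 24 of 102 with H3K27me3 were higher and 22 of 34 without it (64.7%). Of genes with a lost region, 30 of 89 with H3K27me3 were lower (33.7%) and 17 of 193 without it (8.81%). These differences in share were not tested. Genes of gained regions with H3K27me3 had a median of 0.583 CPM of mRNA in YHSCs and 0.536 CPM in OHSCs, so that most of them were at or near the limit of detection at both ages.

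Genes that rose in both assays ranged from channels and receptors to detoxifying enzymes. Tmem215, a membrane protein, had the largest mRNA rise, from 1.21 to 29.2 CPM (log2 fold change 4.59), with its region going from 10.4 to 19.04 CPM. Kcnb2, a voltage-gated potassium channel, went from 0.780 to 17.1 CPM of mRNA and from 10.2 to 28.1 CPM at its region. Gpr183, an oxysterol receptor of blood cells, went from 8.57 to 127 CPM of mRNA and from 2.83 to 5.49 CPM at its region. Selp, the adhesion receptor P-selectin, went from 51.2 to 514 CPM of mRNA and from 4.95 to 7.52 CPM at its region. The metallothionein genes Mt1 and Mt2 and the glutathione transferase Gstm2 rose by 2.45, 3.24 and 2.81 (log2, mRNA) and by 0.76, 0.71 and 1.58 (log2, accessibility). Matn4 and Rbpjl share 1 gained region, so both mRNA rises (3.22 and 3.30) count for it.

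Genes that fell in both assays included receptors and RNA-binding proteins. Il9r, the interleukin 9 receptor, had a region that went from 11.5 to 5.73 CPM and mRNA that fell by 3.66 on the log2 scale. Ccr7, a chemokine receptor of lymphocytes and dendritic cells, went from 2.26 to 1.06 CPM with mRNA lower by a log2 fold change of -3.06, and Cd83, an activation marker of the same cells, from 11.4 to 7.30 CPM with -2.90. Lin28b and Igf2bp2, RNA-binding proteins of fetal stem cells, had regions lower by log2 fold changes of -0.77 and -0.75 and mRNA by -2.03 and -1.93. Socs2, a feedback inhibitor of cytokine signalling, went from 78.4 to 48.6 CPM at its region and from 56.6 to 17.4 CPM of mRNA. The B cell marker list had a summed mRNA level of 172 to 255 CPM in the YHSC and 131 to 152 CPM in the OHSC libraries. Of its 15 genes 11 were lower, against a background of 2.83% of all tested genes. The sort left out cells that stained for a B cell antigen, and the part of B cells in these falls was not tested.

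Among the genes of lost regions with higher mRNA, Ramp2, a receptor activity-modifying protein, had a region with a log2 fold change of -0.62 and mRNA of 2.12. Mir22hg, the host gene of miR-22, had -0.59 and 1.29, and Rap1gap2, a GTPase-activating protein, had -0.87 at one region, -0.71 at another and mRNA of 0.92. All 3 lie on chromosome 11, and the promoter medians of their windows of 5 Mb were -0.26, -0.40 and -0.61. With the GC correction the Ramp2 region and the Rap1gap2 region at -0.71 had edgeR adjusted p of 0.027 and 0.036. Without OHSC replicate 8 that of Ramp2 was 0.014, and without YHSC replicate 2 that of Rap1gap2 was 0.044.

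**Figure D5:**
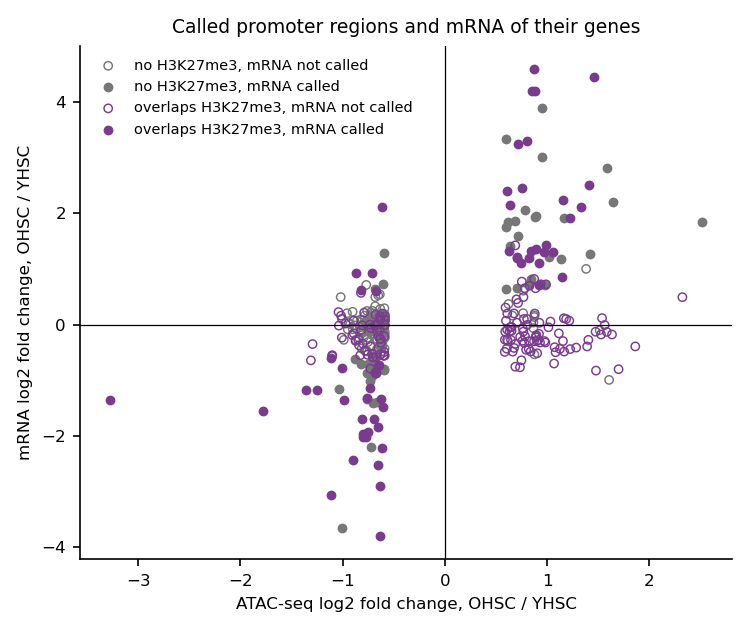
Log2 fold change of mRNA against log2 fold change of accessibility (both OHSC over YHSC), each point 1 called promoter region with 1 of its tested genes. Purple marks regions that overlap H3K27me3, and filled points are genes past the mRNA test. Filled points right of 0 all lie above 0, and left of 0 filled points lie on both sides, most of them below 0.

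H3K27ac was called higher at most peaks over gained promoter regions and was rarely called at lost ones. The 13049 H3K27ac peaks over promoter regions had a median log2 ratio (OHSC over YHSC) of -0.03, with -0.14 to 0.09 over the 4 pairings of libraries. Without one of the libraries that median ran from -0.11 to 0.07. With the libraries scaled to the same median signal it was -0.12. A peak was called where the mean ratio was above 1.5 and each library of the higher age was at least 1.2 times each of the other, with no p-value. Of the 83 peaks over gained regions, 51 were higher (61.4%, background 9.11% of all 39557 peaks) and 0 lower, with a median of 0.73 (0.60 to 0.95 over the pairings). Of the 215 peaks over lost regions, 18 were lower (8.37%, background 2.27%) and 1 higher, with a median of -0.10.

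Of the promoters of stem cell regulators, 9 passed the test. Of 55 tested regions of HSC self-renewal regulators, 1 was gained, 1 lost, and 1 was higher and 8 lower at an edgeR adjusted p below 0.01, where 3.07% of all tested promoter regions were higher and 24.96% lower. With the GC correction 3 were higher and 7 lower (5 of them among the 8), where 5.36% and 11.1% of all promoter regions were. The median log2 fold change was -0.10, against -0.14 over all of them. Hlf, a transcription factor that is high in HSCs, went from 26.7 ± 0.807 to 18.9 ± 1.00 CPM (SD, n = 4 each; log2 fold change -0.50), with an mRNA change of -0.09. Hlf lies in the low stretch of chromosome 11, in a window with a promoter median of -0.35. The 3 regions at Meis1, a homeodomain factor of HSCs, had log2 fold changes of -0.02, 0.15 and 0.02 that did not pass the test. The promoter regions of the HSC markers Procr, Slamf1, Mecom, Fgd5 and Kit were all accessible and none passed it, and Ly6a had no promoter region, though its mRNA was present at 228 CPM in YHSCs.

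The list of known HSC aging genes, which was compiled from genes already known to rise with age and is no independent evidence of a direction, had 7 gained and 1 lost of 50 regions, and 16 higher and 2 lower at an adjusted p below 0.01. Over all promoter regions 1.30% were gained, 1.87% lost, 3.07% higher and 24.96% lower. Under the GC correction 18 of the list were higher and 0 lower. Of its 42 genes, 37 had higher mRNA. Clca3a1, a chloride channel regulator, went from 14.8 ± 1.35 to 28.7 ± 3.83 CPM (SD, n = 4 each), and Cavin2, a caveolar protein, from 58.7 ± 1.75 to 83.5 ± 4.49 CPM. Osmr, the oncostatin M receptor, went from 22.1 ± 0.617 to 31.3 ± 1.96 CPM with mRNA higher by 3.39 on the log2 scale. Of other genes the study discusses, Mfsd1, Batf and Lmna had promoter regions that did not pass the test (log2 fold changes of -0.20 and -0.12, and of -0.34 and -0.15 at 2 Lmna regions), and Spi1, a myeloid and lymphoid factor, had -0.27. The Spi1 difference passed the test (edgeR adjusted p = 0.0016), but had an adjusted p of 0.067 with the GC correction (log2 fold change -0.16) and of 0.014 without YHSC replicate 3. Ide had no promoter region by the rule.

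Lineage genes are given against all promoter regions, of which 1.30% were gained, 1.87% lost, 3.07% higher and 24.96% lower. Of 34 regions of megakaryocyte and platelet genes 1 was gained (Selp), 3 were lost, and 3 were higher and 7 lower at an adjusted p below 0.01. All 3 lost regions belong to P2rx1, a platelet ATP receptor on chromosome 11, with log2 fold changes of -0.99 (a region named after its value was seen), -0.87 and -0.76 in a window whose promoter median was -0.61. Of 16 erythroid regions 0 were higher and 3 lower, of 12 myeloid and granulocyte regions 1 was higher (Cebpd) and 2 lower, and of 27 lymphoid priming regions 0 were higher and 7 lower. Satb1, a chromatin organiser of lymphoid cells, went from 59.3 ± 2.59 to 46.1 ± 2.75 CPM (SD, n = 4 each) and its mRNA from 15.2 ± 1.08 to 5.12 ± 0.783 CPM. Mef2c, a lymphoid and myeloid factor, had -0.28 at its region and 0.57 in mRNA. Of 34 interferon response regions 0 were higher and 9 lower, and of 46 AP-1 and early response regions 0 were higher and 11 lower. With the GC correction, under which 5.36% of all promoter regions were higher and 11.1% lower, 2 megakaryocyte and platelet regions were higher and 4 lower, and 0 erythroid regions were higher and 1 lower, not one of the 3 above. For myeloid and granulocyte genes the counts were then 1 higher and 0 lower, for lymphoid priming genes 1 and 2, for interferon response genes 0 and 9 (6 of them among the 9 above), and for AP-1 and early response genes 5 higher and 4 lower.

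Promoters of housekeeping and chromatin genes were read against the 24.96% lower and 3.07% higher of all promoter regions. At an adjusted p below 0.01, the counts of lower regions were 20 of 74 for cytosolic ribosomal proteins, 22 of 68 for oxidative phosphorylation, 17 of 43 for proteasome subunits, 12 of 42 for DNA replication and cell cycle, 3 of 34 for replication-dependent histones, 8 of 28 for TBP and the general transcription factors, 5 of 13 for DNA methylation enzymes and 6 of 20 for H3K4 methylation enzymes. Regions that were higher numbered 1 for the proteasome, 1 for H3K4 methylation enzymes and 0 in the other lists of this group. The list medians ran from -0.21 to -0.11, and from -0.11 to -0.04 with the GC correction, against -0.14 and -0.04 over all promoter regions. With that correction the counts of lower regions were 9 for cytosolic ribosomal proteins, 12 for oxidative phosphorylation, 4 for the proteasome, 5 for DNA replication and cell cycle, 3 for replication-dependent histones (0 of them among the 3 above), 2 for TBP and the general transcription factors, 1 for DNA methylation enzymes and 2 for H3K4 methylation enzymes, where 11.1% of all promoter regions were lower. Those higher were then 1 for oxidative phosphorylation, 1 for the proteasome, 2 for H3K4 methylation enzymes and 0 in the other lists. For Polycomb subunits 13 of 32 were lower and 0 higher, and the log2 fold changes ran from -0.50 to -0.09, with a median of -0.22. With the GC correction 2 were lower and the median was -0.06. Ezh2, the H3K27 methyltransferase of Polycomb, went from 84.0 ± 3.02 to 69.5 ± 2.44 CPM (SD, n = 4 each), but with the GC correction its log2 fold change was -0.11 with an edgeR adjusted p of 0.051. Pcgf5, a subunit of PRC1, went from 70.5 ± 2.34 to 50.1 ± 1.98 CPM (log2 fold change -0.49), and lies on chromosome 19 in the same window of 5 Mb as Btaf1. Btaf1, which removes TBP from DNA, went from 28.1 ± 1.86 to 20.8 ± 0.562 CPM on chromosome 19, with a log2 fold change of -0.44 against a promoter median of -0.40 in its window, while its mRNA was 93.2 ± 13.2 CPM (SD, n = 4) in YHSCs and 134 ± 13.6 CPM (n = 8) in OHSCs. That log2 fold change of 0.53 is below the 1.5-fold threshold, and the H3K27ac ratio at its promoter was 1.78. These mRNA counts are per gene and pool its variants. The study reports a rise of a shorter variant, which lacks the ATPase domain, and no change of the canonical variant.

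Promoters of developmental regulators had regions past the test in both directions. Of 106 regions of homeobox, paired and T-box genes, 90 of which carried H3K27me3, 8 were higher and 6 lower at an adjusted p below 0.01, with 2 gained and 1 lost and a median log2 fold change of -0.01, which was 0.12 with the GC correction, under which 13 were higher and 2 lower. Over all promoter regions with H3K27me3, 8.16% were higher, 12.96% lower, 3.72% gained and 2.63% lost. With the GC correction 13.1% of them were higher and 5.96% lower. Irx2, a homeobox gene, went from 18.2 ± 2.51 to 38.7 ± 5.16 CPM (SD, n = 4 each; log2 fold change 1.07), with mRNA of 0.486 and 0.297 CPM. Of 35 Hox regions 2 were gained, Hoxc13 (0.74) and Hoxd11 (0.63), and 0 were lower. Without OHSC replicate 5 the edgeR adjusted p of Hoxd11 was 0.047. Among markers of other cells, the 6 regions of B cell markers and the 3 of T and NK cell markers held none that passed the test, and of 9 endothelial and stromal regions 1 was lower (Flt4, -0.36, in a window of chromosome 11 with a promoter median of -0.27). With the GC correction 1 B cell region and 1 T and NK region were lower, and of the endothelial and stromal regions 1 was lower and 1 higher. Of all promoter regions 5.36% were then higher and 11.1% lower. The summed mRNA of the T and NK list was 44.5 to 49.7 CPM in YHSC and 84.4 to 112 CPM in OHSC libraries, and of the endothelial list 154 to 167 and 167 to 200 CPM.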

How the data were processed

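ATAC-seq, ChIP-seq and mRNA-seq of young and old HSCs were used. Reads were trimmed with cutadapt and aligned by the authors to mm10 with BWA (ATAC-seq, ChIP-seq) or STAR (mRNA-seq), peaks were called with MACS2 for ATAC-seq, H3K4me3 and H3K27ac and as broad peaks from IDEAS chromatin states for H3K27me3 and H3K36me3, and the deposited ATAC-seq and mRNA-seq values are raw counts per region or gene (featureCounts for mRNA). The sources used here do not say if cut sites were offset for the transposase. The deposited H3K4me3, H3K27me3 and H3K27ac values are signal that the authors normalised to a common number of reads. H3K36me3 was used as deposited peak positions only, and no value of that file was used. The authors' own fold changes between ages, in the histone mark tables, were not used, nor were 8 columns of per-sample values that matched no sample.

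Regions were tested where CPM exceeded 1.5 in at least 4 libraries, with edgeR 4.0.16 (TMM, robust quasi-likelihood F test, R 4.3.3) over all 89245 of them. mRNA was fitted likewise after filterByExpr, with 92 spike-in rows left out, on libraries of 20475764 to 24654742 gene counts. Single values per library were compared with a two-sided exact permutation test (scipy 1.17.1). Overlaps were made with bedtools 2.31.1 and positions are 1-based. In simulated counts 200 promoter regions were changed 2-fold, and 98.0% of those that passed the filter were recovered, with 0 false calls among 87790 regions. The simulation held no smaller change, no trend with GC content and no shift of chromosome stretches, so it does not cover these. The named regions are the 8 largest rises and falls past the call, the 3 highest, up to 4 of each gene list with the smallest adjusted p, regions of genes the study discusses, and the 3 genes with a called region whose mRNA was called most in the opposite direction. Genes called the same way in both assays, other single genes and the stretches of chromosomes were chosen after their values were seen. Members and lists were chosen with earlier results of these data known. The printed sequences were placed at start sites in place of region centres, to limit transcribed sequence. Alternatives were DESeq2 1.42.0, other scalings, filters and thresholds, a GC correction (a spline with 6 degrees of freedom) and leaving out each library. Results for some named genes are not reported here.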

Additional observations from a re-analysis of the deposited data

Results flagged for a closer look

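In 208 groups of 4 libraries (the YHSC or OHSC values of the 101 named regions and of the 3 promoter measures per library), 5 held a library that stood apart from the other three, and chance flags about 1 in 20 groups. At Gp1ba, a platelet glycoprotein, YHSC replicate 2 had 17.0 CPM and the others 22.2 to 22.8 CPM. At Cox8a, a subunit of cytochrome oxidase, YHSC replicate 2 had 35.0 CPM and the others 39.7 to 40.1 CPM. At Psme2, a proteasome activator, YHSC replicate 4 had 67.1 CPM and the others 60.9 to 61.1 CPM. At Fech, the last enzyme of heme synthesis, OHSC replicate 6 had 44.3 CPM and the others 48.4 to 48.8 CPM. At Crlf2, OHSC replicate 8 had 232 CPM and the others 218 to 221 CPM. Replicate 2 of the YHSCs was also the shallowest library, with 15427933 counted reads.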

How the results depend on the processing

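Leaving out 1 library gave shares of reads in promoter regions that differed by -3.59 to -3.29 percentage points, promoter levels by -0.25 to -0.23 and H3K27me3 promoter shares by 0.811 to 1.14 points. Each then had an exact permutation p of 0.0571, the smallest that 3 against 4 can give. Only promoters with strong H3K4me3 gave a rise of 0.136 points in the H3K27me3 share (exact permutation p = 0.0571), 4 gained and 119 lost regions. A fold above 2 left 63 gained and 25 lost. Without chromosomes 11 and 19, chosen after seeing the data, 150 regions were lost, and relative to the median of all tested regions of the window 100. Without an mRNA fold threshold 76 genes had a lost region and lower mRNA. The counts of gained and lost regions were 177 to 231 and 258 to 296 without 1 library, and 203 and 286 with DESeq2. The GC correction ended the adjusted p below 0.01 of 30 of the 101 named regions, 94 of which had passed it. It turned the log2 fold change of the 4932412D23Rik region to 0.019. The Meis1 region starting at 19018390 turned to 0.0023 with total counts, and without 1 library it ran from -0.048 to 0.016 (0.0012 without OHSC replicate 7). The one starting at 19020312 ran from -0.012 to 0.061. None of these Meis1 values passed the test. No paired analysis was possible for ATAC-seq because the groups share no replicate numbers. For mRNA, same-numbered libraries did not deviate together (correlations of 0.04, -0.14, 0.02 and -0.23), and with the replicate block 44 genes with gained and 41 with lost regions moved with mRNA, against 46 and 46. The 474 promoter regions below the filter on low counts, with a median of 1.07 CPM, were left out of the main test. Without that filter 194 promoter regions were gained and 380 lost, against 207 and 297 with it.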

Other observations

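Among the 28 windows of 5 Mb with a promoter median below -0.3, the median mRNA change of a window ran from -0.13 to 0.34, and over all 322 windows from -0.30 to 0.46. Chromosome 19 had 0 gained promoter regions among 554, chromosome 11 had 6 among 1265, and 201 of the 207 gained regions lay elsewhere. Chromosome 18 had the highest share of gained promoter regions, 3.01%. The protocadherin gene Pcdhb16 was among them, with a region that went from 3.46 ± 0.799 to 8.84 ± 0.380 CPM (SD, n = 4 each) and mRNA from 2.30 ± 0.683 CPM (n = 4) to 9.93 ± 2.34 CPM (n = 8). Several regions of protocadherin gamma genes were lost instead, with log2 fold changes from -0.59 at Pcdhga7 to -1.04 at Pcdhgb7. The potassium channel gene Kcnn2 went from 34.8 ± 1.36 to 72.5 ± 4.78 CPM (SD, n = 4 each), with mRNA of 0.883 and 2.19 CPM.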
